A study of Mus musculus with 14 samples.

Results

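The MHC class I and immunoproteasome genes H2-K1, H2-D1, B2m, Tap1, Tap2, Tapbp, Psmb8, Psmb9, Psmb10 and Nlrc5 were chosen by name and followed across the 4 groups of the study. The choice was made with earlier results of these data known. All 10 were found by symbol among the 47729 genes listed, and all 10 were among the 17926 genes with enough counts to be tested. Messenger RNA of whole mouse kidney had been sequenced in 14 libraries. Of these, 4 came from obstructed kidneys labelled SMOC2 transgenic (SMOC2 UUO), 4 from obstructed wild-type kidneys (WT UUO), 3 from untreated kidneys labelled SMOC2 transgenic (SMOC2 normal) and 3 from untreated wild-type kidneys (WT normal). UUO is unilateral ureteral obstruction, the tying of a ureter, here for 7 days, which is a model of kidney fibrosis. The sources used here do not give the promoter of the transgene or the strain and age of the animals in these groups, and the only treatment protocol on the samples describes folic acid injection in Balb/c males, which does not match the obstruction named in the titles. Whether every library is a separate animal is not in the labels, and p-values therefore refer to the spread among libraries, which may be technical.

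Class I antigen presentation shows peptides of a cell's own proteins on its surface, where CD8+ T cells and natural killer cells read them. Proteasomes cut proteins into peptides, the TAP transporter carries the peptides into the endoplasmic reticulum, tapasin holds an empty class I molecule beside the transporter, and a heavy chain joined to beta-2 microglobulin takes the peptide to the surface. Interferons, above all interferon gamma, are known to switch on most genes of this pathway, partly through the transactivator NLRC5, and to replace the catalytic subunits of the standard proteasome by those of the immunoproteasome. In the kidney, tubule cells, endothelium and immune cells all carry class I molecules.

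Total counts ran between 19483994 and 30033405 per library. Smoc2 itself had 124, 89.9, 83.9 and 87.1 CPM (counts scaled to a common library size) in SMOC2 UUO, against 150.4, 131, 158 and 148 CPM in WT UUO, and 27.8, 26.9 and 10.6 CPM in SMOC2 normal, against 12.6, 19.7 and 43.3 CPM in WT normal. The libraries labelled transgenic thus held no excess of Smoc2 reads, and "SMOC2" below is the label only. Defining markers of kidney were present in every library, and their summed levels differed between states: 5 proximal tubule markers summed to between 1858 and 2489 CPM in SMOC2 UUO and between 992 and 2806 CPM in WT UUO, against 14379.9 to 17839 CPM in SMOC2 normal and 12573 to 14964.5 CPM in WT normal.

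All 10 genes rose with obstruction under both genotype labels. By edgeR's quasi-likelihood test with Benjamini-Hochberg adjustment over all 17926 genes, 10 of 10 were higher in SMOC2 UUO than in SMOC2 normal, where 32.5% of all genes tested were higher, and 10 of 10 were higher in WT UUO than in WT normal, where 31.3% were. The median change of the 10 genes was 1.99 on the log2 scale in SMOC2 UUO, against a median of 0.0365 over all genes, and 2.22 in WT UUO, against 0.0455 over all genes. The change was at least 2-fold for 9 of the 10 in SMOC2 UUO, Tapbp being the exception, and for 10 of 10 in WT UUO, where 18.9% and 17.9% of all genes passed the same size and test in these comparisons. Every SMOC2 UUO library lay above every SMOC2 normal library for 10 of 10 genes, against 32.6% of all genes, and every WT UUO library above every WT normal library for 9 of 10, against 31.3%, with H2-D1 overlapping. Whole tissue was sequenced, so more cells of a type and more RNA per cell cannot be told apart.

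**Figure D1:**
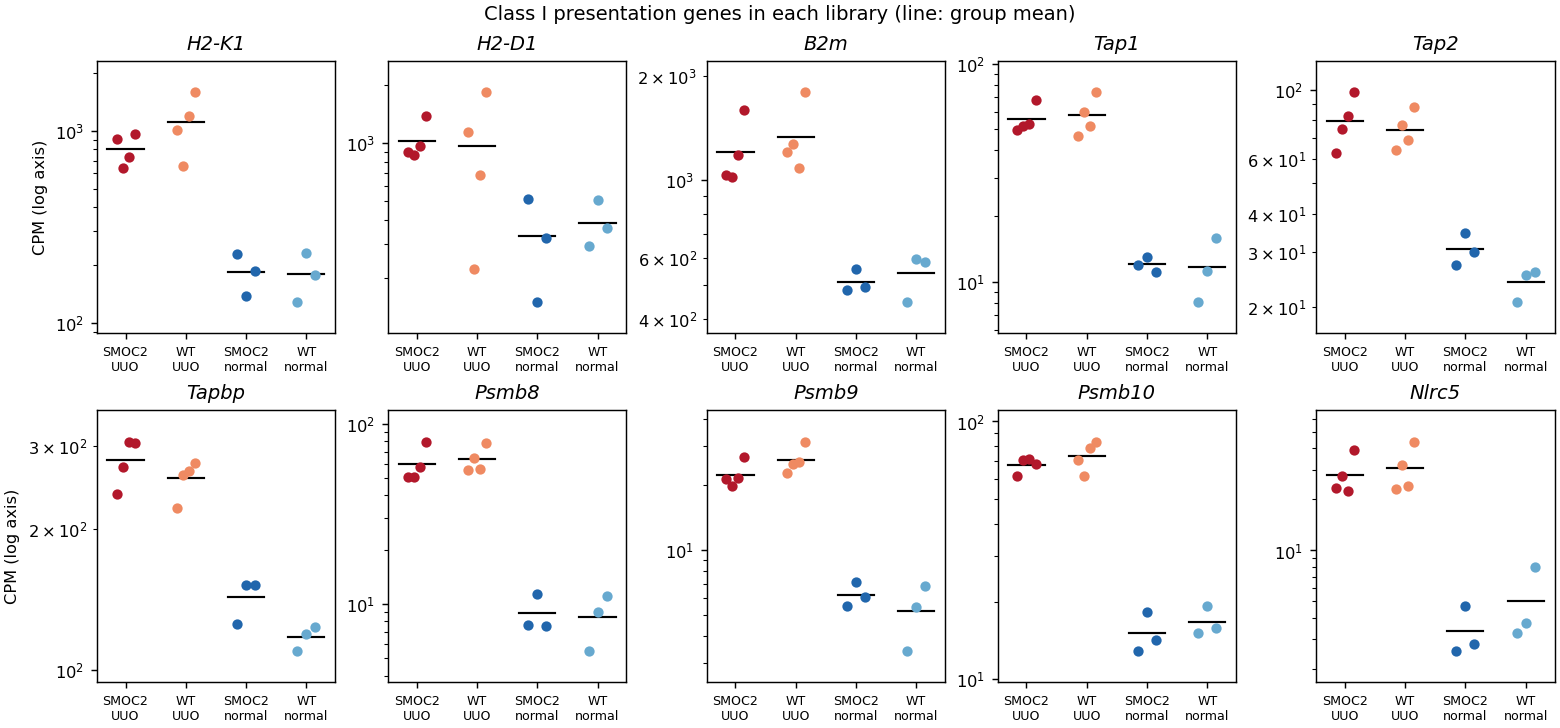
Level of each of the 10 genes in each library, in CPM on a log axis, with 1 point per library and a line at the group mean. The UUO points stand above the normal points in every panel except H2-D1, where a WT UUO library at 223 CPM lies below all 3 WT normal libraries.

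Markers of immune cells moved with these genes, and so did markers of fibroblasts. The 4 pan-leukocyte markers summed to between 277 and 367 CPM in SMOC2 UUO and between 307 and 366 CPM in WT UUO, against 31.2 to 36.3 CPM in SMOC2 normal and 26.8 to 48.8 CPM in WT normal. The 6 macrophage markers summed to between 1211 and 1974 CPM in SMOC2 UUO and between 1554 and 1849 CPM in WT UUO, against 208 to 257 CPM in SMOC2 normal and 202 to 228 CPM in WT normal. The 8 T cell markers summed to 38.0 to 60.8 CPM in SMOC2 UUO and 27.9 to 64.2 CPM in WT UUO, against 9.74 to 19.2 CPM in SMOC2 normal and 5.98 to 12.6 CPM in WT normal. No marker of these lists was at 0 in all libraries of a group. The 5 endothelial markers, of a cell type that carries class I at rest, summed to 348 to 361 CPM in SMOC2 UUO and 309.6 to 365 CPM in WT UUO, against 322 to 435 CPM in SMOC2 normal and 341 to 469 CPM in WT normal. The 5 fibroblast markers summed to 1333 to 1927 CPM in SMOC2 UUO and 992 to 1690 CPM in WT UUO, against 96.6 to 218 CPM in SMOC2 normal and 125 to 274 CPM in WT normal. The part of these cell types in the rise of the class I genes was not tested.

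H2-K1 and H2-D1 encode the classical class I heavy chains, which bind the peptide. H2-K1 (chromosome 17, 33996017 to 34000347, minus strand, mm10) had 902, 638, 729.7 and 960.5 CPM in SMOC2 UUO, against 229, 138 and 186 CPM in SMOC2 normal. It had 1009, 656, 1198 and 1584 CPM in WT UUO, against 129, 231 and 177 CPM in WT normal. The states did not overlap under either label, and H2-K1 was 4.39-fold higher in SMOC2 UUO (log2 2.13, SE 0.29, adjusted p = 2.11e-05) and 6.21-fold higher in WT UUO (log2 2.63, SE 0.30, adjusted p = 3.92e-06). H2-D1 (chromosome 17, 35262730 to 35267499, plus strand) had 897, 875, 973 and 1394 CPM in SMOC2 UUO, against 515, 150.7 and 322 CPM in SMOC2 normal. It had 1143, 223, 684 and 1840.4 CPM in WT UUO, against 293, 506 and 362 CPM in WT normal. Its rise was 3.14-fold in SMOC2 UUO (log2 1.65, SE 0.55, adjusted p = 0.0177) and 2.51-fold in WT UUO (log2 1.33, SE 0.54, adjusted p = 0.0471). The libraries of a group spread widely for this gene, between 223 and 1840.4 CPM in WT UUO, and the states overlapped there.

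Over all alternatives run, the other 9 genes kept their direction and their call in both UUO comparisons, and H2-D1 did not. In SMOC2 UUO the call was lost without SMOC2 normal 3 (log2 1.31, adjusted p = 0.0739) or without SMOC2 normal 4 (log2 1.64, adjusted p = 0.0525). In WT UUO it was lost without 10 of the 14 libraries taken out one at a time, with a change of 0.82 (adjusted p = 0.173) without WT UUO 4 as the lowest. The others were WT UUO 1 (log2 1.24, adjusted p = 0.0842), WT normal 1 (log2 1.16, adjusted p = 0.142), WT normal 2 (log2 1.57, adjusted p = 0.0561), WT normal 3 (log2 1.28, adjusted p = 0.111), and SMOC2 normal 4 and all 4 SMOC2 UUO libraries (adjusted p = 0.0525 to 0.0577). It was also lost with limma-voom (log2 1.01, adjusted p = 0.129) and in a fit of the wild-type libraries alone (log2 1.33, adjusted p = 0.0836). Without WT UUO 2 the change in WT UUO was 1.67 (adjusted p = 0.00372). With WT UUO 2 and SMOC2 normal 3 both left out, a choice made after seeing the data, it was 1.32 in SMOC2 UUO (adjusted p = 0.00952) and 1.67 in WT UUO (adjusted p = 0.00115).

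WT UUO 2 and SMOC2 normal 3 stood apart in other genes of the H2 complex too. H2-D1 over B2m was 0.176 in WT UUO 2, against 0.632 to 1.03 in the other WT UUO libraries, and 0.272 in SMOC2 normal 3, against 0.651 and 1.07 in the other SMOC2 normal libraries. H2-Eb1 and H2-Ab1 encode beta chains of class II molecules, and their ratio was 0.740 in WT UUO 2 and 0.877 in SMOC2 normal 3. In the other 12 libraries the same ratio was either between 0.0236 and 0.0539 or between 0.410 and 0.522, and the low values occurred in every group: SMOC2 UUO 1, WT UUO 1, 3 and 4, SMOC2 normal 1 and WT normal 2. H2-Ea-ps, annotated as a polymorphic pseudogene, had 0.135 CPM in WT UUO 2 and 0 in SMOC2 normal 3, against 4.28 to 20.2 CPM in the other UUO libraries and 0.661 to 1.57 CPM in the other normal libraries. H2-K1 was likewise the lowest of its group in both libraries, at 656 and 138 CPM, whereas B2m, Tap1, Tap2, Tapbp, Psmb8, Psmb9 and Nlrc5 were not. H2-K1 over B2m also went with the class II ratio beyond these libraries. It was 0.838 to 1.11 in the UUO libraries with the low class II ratio, against 0.517 to 0.622 in the other UUO libraries. In normal libraries it was 0.390 to 0.474 with the low class II ratio, against 0.249 to 0.375 in the others. H2 genes are highly polymorphic, the reads were aligned to the genome of the C57BL/6J strain, and some H2 genes have near-identical copies between which reads can be split or lost. The part of strain or of counting in these values was not tested.

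**Figure D2:**
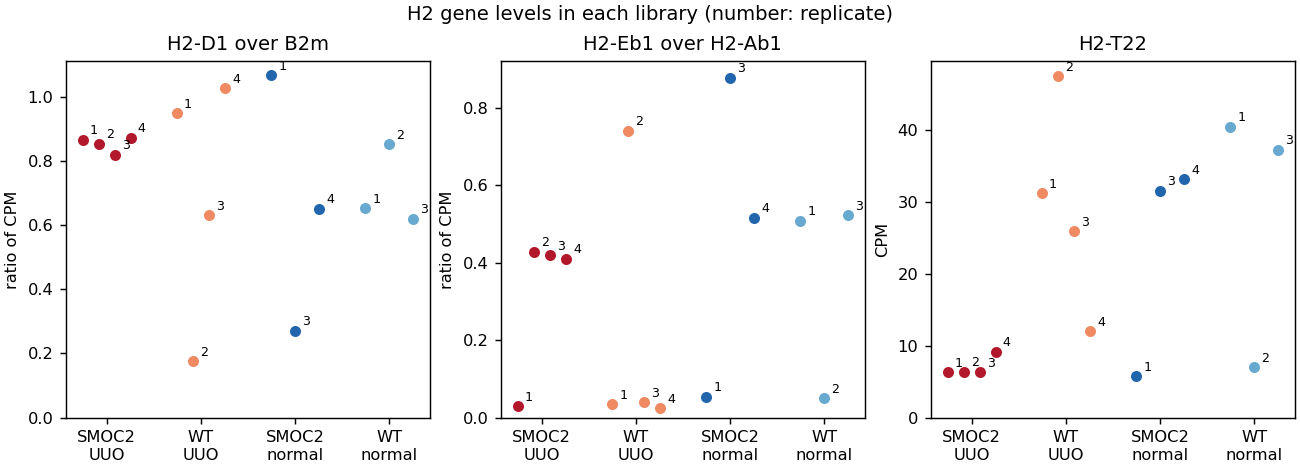
H2-D1 over B2m and H2-Eb1 over H2-Ab1, as ratios of CPM, and H2-T22 in CPM, with 1 point per library numbered by replicate. WT UUO 2 and SMOC2 normal 3 have the lowest H2-D1 over B2m (0.176 and 0.272) and the highest H2-Eb1 over H2-Ab1 (0.740 and 0.877), and the low values of the second ratio occur in all 4 groups, the middle ones (0.410 to 0.522) in all but WT UUO.

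B2m encodes beta-2 microglobulin, the invariant light chain of every class I molecule (chromosome 2, 122147686 to 122153083, plus strand). It had 1035, 1025, 1186 and 1596 CPM in SMOC2 UUO, against 482, 555 and 494 CPM in SMOC2 normal. It had 1204, 1268, 1083 and 1789.7 CPM in WT UUO, against 448, 593 and 584 CPM in WT normal. The states were well apart, with a rise of 2.37-fold in SMOC2 UUO (log2 1.24, SE 0.19, adjusted p = 6.98e-05) and 2.47-fold in WT UUO (log2 1.30, SE 0.20, adjusted p = 5.13e-05). H2-K1 over B2m was 0.602 to 0.872 in SMOC2 UUO and 0.517 to 1.11 in WT UUO, against 0.249 to 0.474 in SMOC2 normal and 0.288 to 0.390 in WT normal, with no overlap between states under either label.

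Tap1 and Tap2 encode the subunits of the peptide transporter, and Tapbp encodes tapasin. Tap1 (chromosome 17, 34187553 to 34197225, plus strand) had 49.8, 51.8, 52.8 and 68.0 CPM in SMOC2 UUO, against 11.9, 13.0 and 11.04 CPM in SMOC2 normal. It had 46.7, 60.3, 51.6 and 73.8 CPM in WT UUO, against 8.11, 11.2 and 15.8 CPM in WT normal. Tap1 rose 4.64-fold in SMOC2 UUO (log2 2.21, SE 0.21, adjusted p = 7.74e-07) and 4.94-fold in WT UUO (log2 2.30, SE 0.21, adjusted p = 5.87e-07). Its partner Tap2 (chromosome 17, 34203527 to 34216321, plus strand) had 62.7, 75.0, 82.2 and 98.1 CPM in SMOC2 UUO, against 27.4, 34.7 and 30.1 CPM in SMOC2 normal. WT UUO libraries had 64.0, 76.9, 69.1 and 87.8 CPM, against 20.9, 25.3 and 25.98 CPM in WT normal. Tap2 rose 2.58-fold in SMOC2 UUO (log2 1.37, adjusted p = 3.09e-06) and 3.09-fold in WT UUO (log2 1.63, adjusted p = 7.67e-07), and no UUO library overlapped a normal one for either subunit.

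Tapbp (chromosome 17, 33915899 to 33929292, plus strand) had the smallest change of the 10 genes in both comparisons. It had 237, 271, 307 and 305 CPM in SMOC2 UUO, against 126, 152 and 152 CPM in SMOC2 normal. WT UUO kidneys had 222, 261, 265 and 277 CPM, against 109.9, 119 and 124 CPM in WT normal. Although the change was small, the libraries agreed closely, so that Tapbp rose 1.96-fold in SMOC2 UUO (log2 0.97, SE 0.11, adjusted p = 4.69e-06) and 2.18-fold in WT UUO (log2 1.12, SE 0.11, adjusted p = 1.38e-06).

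Psmb8, Psmb9 and Psmb10 encode the catalytic subunits of the immunoproteasome. Psmb8 (chromosome 17, 34197721 to 34201454, plus strand) had 50.8, 50.8, 57.3 and 79.5 CPM in SMOC2 UUO, against 7.64, 11.4 and 7.55 CPM in SMOC2 normal. In WT UUO the values were 55.3, 64.5, 55.7 and 77.6 CPM, against 5.51, 8.999 and 11.02 CPM in WT normal. It rose 6.72-fold in SMOC2 UUO (log2 2.75, SE 0.25, adjusted p = 4.31e-07) and 7.42-fold in WT UUO (log2 2.89, SE 0.25, adjusted p = 3.15e-07), the highest estimate among the 10 genes in WT UUO. Psmb9 (chromosome 17, 34181987 to 34187764, minus strand) had 21.1, 19.7, 21.4 and 26.9 CPM in SMOC2 UUO, against 5.51, 7.10 and 6.04 CPM in SMOC2 normal. In WT UUO it had 22.6, 24.8, 25.4 and 31.6 CPM, against 3.44, 5.48 and 6.86 CPM in WT normal. It rose 3.57-fold in SMOC2 UUO (adjusted p = 2.82e-06) and 4.95-fold in WT UUO (adjusted p = 4.46e-07). Psmb10 (chromosome 8, 105935735 to 105938444, minus strand) had 61.5, 71.1, 71.4 and 68.2 CPM in SMOC2 UUO, against 12.9, 18.3 and 14.2 CPM in SMOC2 normal. In WT UUO it had 71.2, 61.2, 78.8 and 83.6 CPM, against 15.1, 19.2 and 15.8 CPM in WT normal. It had the smallest adjusted p of the 10 genes, with a rise of 4.50-fold in SMOC2 UUO (adjusted p = 2.99e-08) and 4.42-fold in WT UUO (adjusted p = 3.57e-08). Tap1 and Psmb9 lie head to head and share 212 exon bases on opposite strands. The strand setting of the counting is not given in the sources used here, so reads from that overlap are uncertain for both genes.

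Nlrc5 encodes the transactivator of class I genes (chromosome 8, 94434356 to 94527272, plus strand). It had 23.4, 27.5, 22.3 and 38.9 CPM in SMOC2 UUO, against 2.57, 4.72 and 2.81 CPM in SMOC2 normal. In WT UUO it had 23.02, 31.8, 23.98 and 43.9 CPM, against 3.26, 3.74 and 8.02 CPM in WT normal. No library crossed between states, and Nlrc5 rose 8.28-fold in SMOC2 UUO (log2 3.05, SE 0.37, adjusted p = 6.23e-06), the highest estimate of the 10 genes there, and 6.04-fold in WT UUO (log2 2.60, SE 0.35, adjusted p = 1.85e-05).

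**Figure D3:**
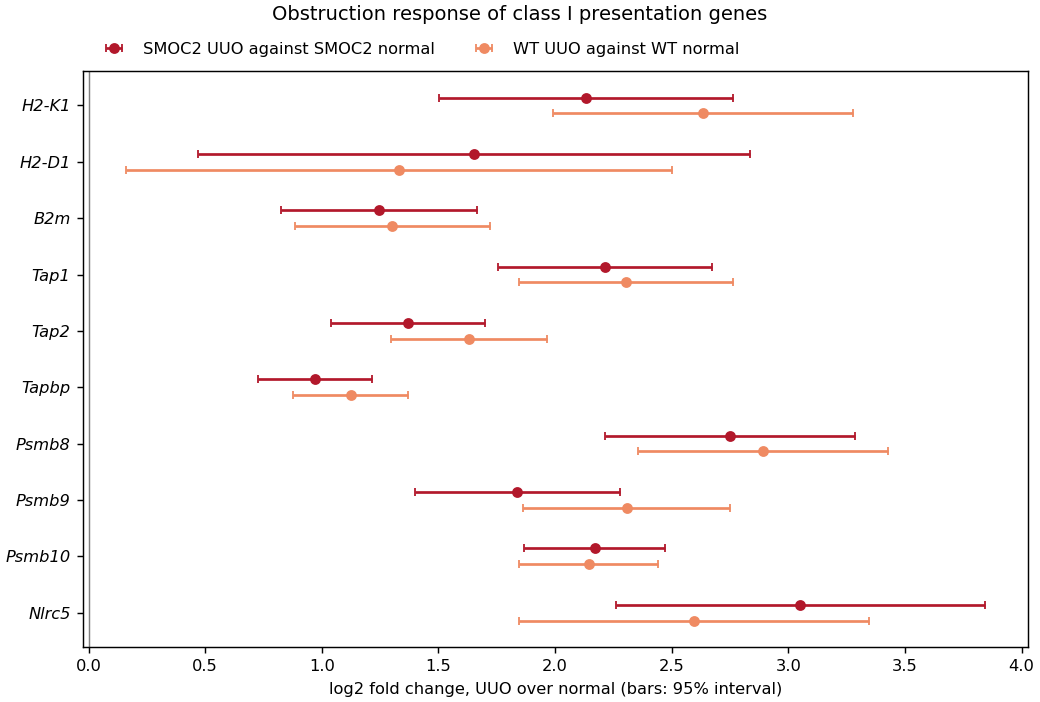
Log2 fold change of UUO over normal for the 10 genes, with 95% intervals, for SMOC2-labelled and wild-type kidneys. Tapbp sits lowest at 0.97 and 1.12 among the narrow intervals, Psmb8 and Nlrc5 sit between 2.60 and 3.05, and H2-D1 has the widest intervals.

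Promoter sequence is shown for the heavy chains, the light chain and Tap1, because these genes lie on 2 chromosomes and rose together. Each window runs from 250 bases before to 50 bases after the RefSeq transcription start (GRCm38.p6), and 8 of the 10 genes had an entry. Capitals mark matches to 4 motifs searched on both strands: the NF-kB consensus; GAANNGAAA, an interferon response type site that reads TTTCNNTTC on the other strand; TGACG, a CRE type site that reads CGTCA; and the CCAAT box, which reads ATTGG. The windows are chr17:34000298-34000597 on the minus strand for H2-K1, chr17:35262844-35263143 on the plus strand for H2-D1, chr2:122147437-122147736 on the plus strand for B2m and chr17:34187306-34187605 on the plus strand for Tap1.
H2-K1: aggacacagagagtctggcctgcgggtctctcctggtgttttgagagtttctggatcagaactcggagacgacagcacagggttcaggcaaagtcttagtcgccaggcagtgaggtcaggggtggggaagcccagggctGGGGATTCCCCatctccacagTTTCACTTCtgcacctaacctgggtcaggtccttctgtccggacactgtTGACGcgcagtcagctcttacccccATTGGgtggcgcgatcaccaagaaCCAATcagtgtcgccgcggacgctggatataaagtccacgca
H2-D1: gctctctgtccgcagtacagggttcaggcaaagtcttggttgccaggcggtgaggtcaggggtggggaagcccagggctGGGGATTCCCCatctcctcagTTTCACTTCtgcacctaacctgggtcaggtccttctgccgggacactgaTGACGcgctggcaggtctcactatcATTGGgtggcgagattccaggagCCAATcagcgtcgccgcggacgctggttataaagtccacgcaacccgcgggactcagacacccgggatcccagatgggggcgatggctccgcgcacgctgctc
B2m: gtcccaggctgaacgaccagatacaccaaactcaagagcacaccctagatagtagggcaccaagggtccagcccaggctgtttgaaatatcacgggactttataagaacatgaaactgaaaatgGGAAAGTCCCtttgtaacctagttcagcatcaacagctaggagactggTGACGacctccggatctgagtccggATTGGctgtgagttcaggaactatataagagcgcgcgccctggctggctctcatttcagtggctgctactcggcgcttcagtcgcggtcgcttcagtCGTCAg
Tap1: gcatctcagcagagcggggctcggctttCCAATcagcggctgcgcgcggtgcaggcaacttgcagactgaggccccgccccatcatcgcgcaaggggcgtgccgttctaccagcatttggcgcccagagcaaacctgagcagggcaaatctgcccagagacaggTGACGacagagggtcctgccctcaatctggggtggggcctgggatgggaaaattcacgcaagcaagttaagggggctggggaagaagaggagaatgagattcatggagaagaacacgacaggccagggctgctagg
H2-K1 and H2-D1 both held, in this order, an NF-kB consensus match, the interferon response type site, a TGACG and a pair of CCAAT boxes. The NF-kB match began at base -111 from the RefSeq start in H2-K1 and at -171 in H2-D1. Their windows share an identical run of 47 bases, and 176 of 240 bases (73.3%) were identical in the best ungapped alignment. The 2 genes are therefore not independent entries in the counts that follow. Of the 27025 promoters of the same length, 8.18% held the NF-kB consensus and 7.56% held GAANNGAAA. H2-K1, H2-D1 and B2m were the 3 of 8 entries with the NF-kB consensus, at base -126 in B2m, and H2-K1 and H2-D1 the 2 of 8 with GAANNGAAA. Only this spacing of GAA and GAAA was searched. The B2m window holds gaaactgaaa, which reads GAAA, 2 bases and GAAA. That form was not searched, so this stretch was neither marked nor counted. The 2 of 8 entries and the 7.56% are for GAANNGAAA alone and not for interferon response sites in general. In H2-K1 and H2-D1 the NF-kB consensus matched on both strands and at neighbouring bases, in overlapping positions. TGACG was in 21.0% of these promoters and in 5 of the 8 entries, and CCAAT in 37.9% and 6 of 8. Another motif, TTCNNNGAA, a GAS type site bound by STAT factors, was in 8.47% of promoters and among these entries only in Psmb8. The windows of Tap1 and Psmb9 overlap by 275 bases, since these genes start beside each other. Their TGACG and CCAAT matches are the same bases read from opposite strands, so the counts of entries above hold these sites once for each gene. The RefSeq start lies 364 bases from the start in the gene annotation used for coordinates for H2-D1, 434 for Psmb9, 474 for Psmb8 and 3579 for Tapbp, and at most 52 for the other 4 entries, so the Tapbp window in particular is not at that annotated start. A match is a description of letters and not of binding.

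Levels were compared between genes per kilobase of exons of protein-coding transcripts. On this scale B2m was highest in every group, at 1407 ± 311 CPM per kilobase in SMOC2 UUO and 1554 ± 363 in WT UUO (SD, n = 4 each), against 594 ± 45.4 in SMOC2 normal and 629.9 ± 94.2 in WT normal (SD, n = 3 each). H2-K1 and H2-D1 came next, and their ranges overlapped in every group. Tapbp followed at 96.6 ± 11.5 in SMOC2 UUO and 88.4 ± 8.26 in WT UUO, against 49.3 ± 5.19 in SMOC2 normal and 40.6 ± 2.41 in WT normal. Nlrc5 was lowest, at 3.45 ± 0.935 in SMOC2 UUO and 3.78 ± 1.19 in WT UUO, against 0.414 ± 0.145 in SMOC2 normal and 0.617 ± 0.323 in WT normal. Between them in UUO came Psmb10, Psmb8, Tap2, Tap1 and Psmb9 in order of their means, with overlapping ranges for every pair of neighbours except Psmb8 and Tap2. In normal kidney the mean of Tap2 was above that of Psmb8, and their ranges overlapped in WT normal. Psmb8 lay above Tap2 in 4 of 4 libraries of each UUO group, and this order turned when all annotated exons were used for the length. Tap1 and Psmb9 overlapped in every group.

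The exchange of proteasome subunits was compared within each library, where the immunoproteasome subunits Psmb8, Psmb9 and Psmb10 were set against the constitutive subunits they take the place of, Psmb5, Psmb6 and Psmb7, as ratios of counts per kilobase. Psmb8 over Psmb5 was 1.64, 1.49, 1.73 and 2.72 in SMOC2 UUO and 1.91, 2.35, 1.65 and 2.49 in WT UUO, against 0.179, 0.249 and 0.173 in SMOC2 normal and 0.166, 0.200 and 0.350 in WT normal. Psmb10 over Psmb7 was 1.399, 1.57, 1.65 and 1.38 in SMOC2 UUO and 1.41, 1.22, 1.89 and 1.88 in WT UUO, against 0.191, 0.238 and 0.182 in SMOC2 normal and 0.222, 0.250 and 0.229 in WT normal. With these lengths every UUO library had more Psmb8 than Psmb5 and more Psmb10 than Psmb7 per kilobase, and every normal library less. Where a ratio lies against 1 depends on the exon length taken for each gene. The ratios were computed only with exons of protein-coding transcripts, which for Psmb8 sum to 1628 bases, against 3381 over all annotated exons. Psmb9 over Psmb6 stayed below 1 throughout, at 0.0936 ± 0.0158 in SMOC2 UUO and 0.115 ± 0.0231 in WT UUO (SD, n = 4 each), against 0.0198 ± 0.000768 in SMOC2 normal and 0.0197 ± 0.00722 in WT normal (SD, n = 3 each).

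Over both labels the ratios were 9.24-fold higher in UUO for Psmb8 over Psmb5, 5.31-fold higher for Psmb9 over Psmb6 and 7.06-fold higher for Psmb10 over Psmb7. In a two-sided exact permutation test within genotype label, each gave p = 0.000816, also after adjustment over the 3 ratios, which is the smallest the 1225 arrangements can give. All 8 UUO libraries lay above all 6 normal libraries for each ratio. Most of each change lay in the immunoproteasome subunit, and the estimates of the constitutive subunits were all below 0 and smaller. Psmb5 fell in SMOC2 UUO (log2 -0.47, adjusted p = 0.00333), and in WT UUO its change was -0.27 (adjusted p = 0.0657). Psmb6 fell in SMOC2 UUO (log2 -0.39, adjusted p = 0.00153) and in WT UUO (log2 -0.24, adjusted p = 0.0323), and the call in WT UUO was lost under upper-quartile scaling (log2 -0.12, adjusted p = 0.265) and with no filter (log2 -0.23, adjusted p = 0.0832). Psmb7 fell in SMOC2 UUO (log2 -0.70, adjusted p = 7.53e-06) and in WT UUO (log2 -0.61, adjusted p = 2.99e-05). For scale, 30.4% of all genes fell in SMOC2 UUO and 29.8% in WT UUO.

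**Figure D4:**
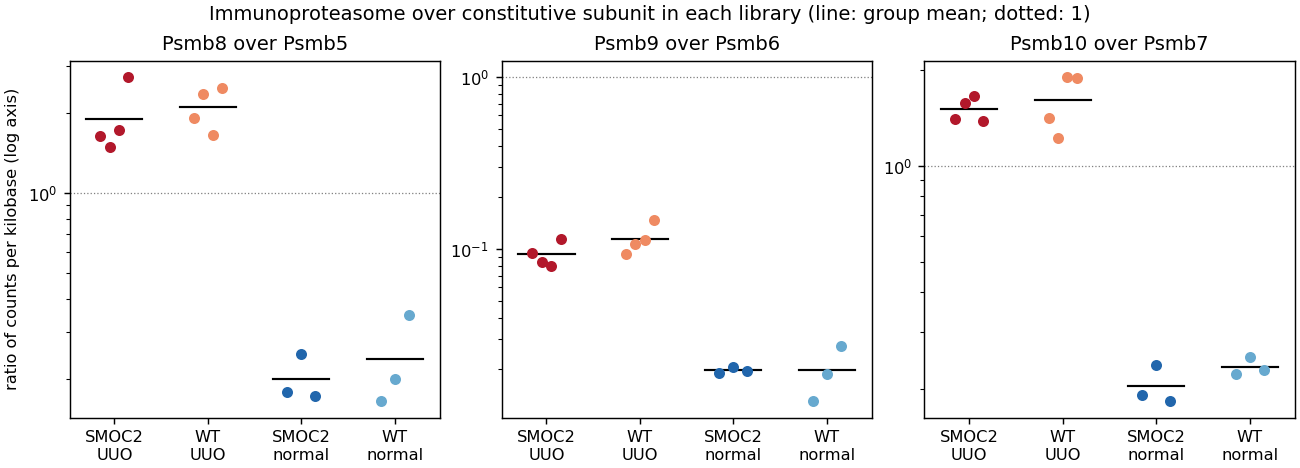
Ratio of each immunoproteasome subunit to its constitutive counterpart per kilobase in each library, on a log axis, with a line at the group mean and a dotted line at 1. With the length of exons of protein-coding transcripts, Psmb8 over Psmb5 and Psmb10 over Psmb7 lie above 1 in all 8 UUO libraries and below 1 in all 6 normal libraries. Psmb9 over Psmb6 lies below 1 in all 14.

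The genes around the pathway did not all move with it. Of the proteasome activator and assembly genes, Psme1 and Psme2, the subunits of the interferon-inducible PA28 cap, rose by 0.80 and 0.84 on the log2 scale in SMOC2 UUO (adjusted p = 3.70e-06 and 1.78e-06) and by 0.91 and 1.09 in WT UUO (adjusted p = 1.28e-06 and 2.06e-07). Psme4, the PA200 cap, fell by 0.50 in SMOC2 UUO (adjusted p = 3.50e-04) and by 0.61 in WT UUO (adjusted p = 7.05e-05), and Psme3, the nuclear PA28 gamma cap, fell in WT UUO (log2 -0.34, adjusted p = 0.00283) and changed by -0.11 in SMOC2 UUO (adjusted p = 0.274). Pomp, the assembly chaperone, changed by -0.05 in SMOC2 UUO (adjusted p = 0.618) and 0.05 in WT UUO (adjusted p = 0.640). Psmb11, the thymus-specific subunit, had too few counts to be tested.

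Of the 7 helpers of peptide loading and trimming, 3 rose and 0 fell in SMOC2 UUO, where 32.5% of all genes rose and 30.4% fell, and 2 rose and 2 fell in WT UUO, where 31.3% rose and 29.8% fell, so that the counts in WT UUO are near the shares over all genes. Tapbpl, a tapasin relative that edits peptides, rose by 1.31 in SMOC2 UUO (adjusted p = 2.08e-07) and 1.34 in WT UUO (adjusted p = 1.92e-07). Erap1, the aminopeptidase that trims peptides, rose by 0.91 in SMOC2 UUO (adjusted p = 1.73e-04) and 0.71 in WT UUO (adjusted p = 0.00129). Of the general folding chaperones of the endoplasmic reticulum, none was called higher by this test. Canx, calnexin, changed by -0.18 in SMOC2 UUO (adjusted p = 0.0764) and fell by 0.51 in WT UUO (adjusted p = 1.18e-04). Calr, calreticulin, changed by 0.04 in SMOC2 UUO (adjusted p = 0.811) and fell by 0.29 in WT UUO (adjusted p = 0.0472), a call lost under upper-quartile scaling (log2 -0.18, adjusted p = 0.197), median-ratio scaling (log2 -0.30, adjusted p = 0.0505), no filter (adjusted p = 0.103), a stricter filter (adjusted p = 0.0525) and a fit of the wild-type libraries alone (adjusted p = 0.0799). Pdia3, a thiol oxidoreductase, changed by 0.06 in SMOC2 UUO (adjusted p = 0.625) and -0.16 in WT UUO (adjusted p = 0.155). Uggt1, a sensor of misfolded glycoproteins, rose by 0.29 in SMOC2 UUO (adjusted p = 0.0189) and changed by 0.06 in WT UUO (adjusted p = 0.612). With WT UUO 2 and SMOC2 normal 3 left out its change in SMOC2 UUO was 0.24 (adjusted p = 0.0756). Lnpep, another trimming aminopeptidase, changed by 0.29 in SMOC2 UUO (adjusted p = 0.442) and -0.24 in WT UUO (adjusted p = 0.509).

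Of 18 other class I heavy chain genes tested, 9 rose and 4 fell in SMOC2 UUO, with a median log2 change of 1.18, and 9 rose and 0 fell in WT UUO, with a median of 1.27. Over all genes, 32.5% rose and 30.4% fell in SMOC2 UUO, and 31.3% rose and 29.8% fell in WT UUO. H2-Q4, a nonclassical gene, rose by 1.47 in SMOC2 UUO (adjusted p = 2.26e-05) and 2.04 in WT UUO (adjusted p = 1.36e-06). H2-M3, which presents formylated peptides, rose by 1.90 in SMOC2 UUO (adjusted p = 1.11e-05) and 2.06 in WT UUO (adjusted p = 5.43e-06), and H2-M2 by 5.03 in SMOC2 UUO (adjusted p = 8.78e-06) and 4.84 in WT UUO (adjusted p = 6.01e-06) at low levels. Cd1d1, which presents lipids, rose by 1.83 in SMOC2 UUO (adjusted p = 3.37e-05) and 1.93 in WT UUO (adjusted p = 2.00e-05), and Mr1, which presents vitamin B metabolites, by 0.77 in SMOC2 UUO (adjusted p = 7.18e-05) and 0.92 in WT UUO (adjusted p = 1.54e-05). With WT UUO 2 and SMOC2 normal 3 left out, 10 rose and 1 fell in SMOC2 UUO, and 10 rose and 0 fell in WT UUO. Reads can be split between several of these genes, because they are near copies of each other.

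Of 23 interferon pathway and class I transcription factor genes tested, 17 rose and 3 fell in SMOC2 UUO, with a median log2 change of 0.89, and 18 rose and 1 fell in WT UUO, with a median of 0.84, against the same 32.5% higher and 30.4% lower over all genes in SMOC2 UUO and 31.3% and 29.8% in WT UUO. With WT UUO 2 and SMOC2 normal 3 left out, 17 rose and 1 fell in SMOC2 UUO. Irf1, a transcription factor that binds interferon response sites, had 89.8, 112, 100.3 and 95.9 CPM in SMOC2 UUO and 93.2, 96.5, 106 and 99.5 CPM in WT UUO, against 16.4, 18.8 and 20.05 CPM in SMOC2 normal and 15.7, 20.7 and 22.7 CPM in WT normal. It rose by 2.43 in SMOC2 UUO (adjusted p = 8.41e-09) and 2.32 in WT UUO (adjusted p = 1.07e-08). The receptor chains for interferon gamma rose too, Ifngr1 by 2.11 in SMOC2 UUO (adjusted p = 2.27e-08) and 1.99 in WT UUO (adjusted p = 3.67e-08), and Ifngr2 by 2.04 in SMOC2 UUO (adjusted p = 3.65e-09) and 1.85 in WT UUO (adjusted p = 5.45e-09). Irf8, a factor of myeloid cells, rose by 1.95 in SMOC2 UUO (adjusted p = 3.39e-08) and 2.01 in WT UUO (adjusted p = 3.21e-08), and Nfkb1, an NF-kB subunit, by 1.43 in SMOC2 UUO (adjusted p = 1.55e-07) and 1.28 in WT UUO (adjusted p = 4.26e-07). A further 3 genes are named after their values were seen. Ciita, the class II counterpart of Nlrc5, rose by 3.25 in SMOC2 UUO (adjusted p = 5.72e-07) and 3.31 in WT UUO (adjusted p = 4.96e-07), while Ifng, interferon gamma itself, had 0.0359 to 0.269 CPM in the UUO libraries and 0 to 0.0559 CPM in the normal ones, too few to be tested, and Ifnb1 had 0 counts in all 14 libraries.

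Of the genes of receptors that read class I or class I-like molecules, 7 could be tested. Of these, 6 rose in SMOC2 UUO, where 32.5% of all genes rose. In WT UUO 7 rose (6 with WT UUO 2 and SMOC2 normal 3 left out), where 31.3% of all genes did, and 0 fell in either comparison. Cd8a, named after its values were seen, was the gene not called in SMOC2 UUO (log2 0.01, adjusted p = 0.994), and Klrc2 had too few counts to be tested. Pirb, an inhibitory receptor of myeloid and B cells, had 35.1, 25.9, 26.4 and 35.6 CPM in SMOC2 UUO and 29.9, 27.9, 34.2 and 35.6 CPM in WT UUO, against 1.88, 1.83 and 2.13 CPM in SMOC2 normal and 2.12, 2.63 and 2.80 CPM in WT normal. It rose by 3.97 in SMOC2 UUO (adjusted p = 3.95e-09) and 3.66 in WT UUO (adjusted p = 5.45e-09). The natural killer receptor genes Klrk1 and Klrd1 rose by 2.20 and 2.59 in SMOC2 UUO (adjusted p = 4.64e-05 and 3.30e-04) and by 3.46 and 2.77 in WT UUO (adjusted p = 9.17e-07 and 1.42e-04). Klra2 and Cd8b1 rose in both comparisons as well, Cd8b1 to between 0.996 and 3.32 CPM in SMOC2 UUO and 0.646 to 2.93 CPM in WT UUO, against 0 to 0.0555 CPM in SMOC2 normal and 0.112 to 0.397 CPM in WT normal.

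The genotype labels were compared next, to see whether the class I genes differed with the SMOC2 label. In SMOC2 UUO against WT UUO, 0 of the 10 genes passed the test, where 0.831% of all genes did, and 0 of 10 had an unadjusted p under 0.05, where 15.2% of all genes did. All 10 had overlapping libraries, whereas 5.42% of all genes had every SMOC2 UUO library above, and 4.43% below, every WT UUO library. DESeq2 and limma-voom called 757 and 232 genes in this comparison, and none of the 10 was called by either. The estimate farthest from 0 was that of H2-K1, at -0.46 (95% interval -1.004 to 0.08, adjusted p = 0.417), and the others lay between -0.23 for Psmb9 and 0.13 for Tapbp. H2-K1 over B2m was higher in UUO libraries with a low H2-Eb1 over H2-Ab1. These were WT UUO 1, 3 and 4, but only SMOC2 UUO 1 under the other label. For H2-K1 the label and this split of libraries cannot be told apart here. The widest intervals were those of H2-D1, at 0.09 (-0.95 to 1.13, adjusted p = 0.956), and Nlrc5, at -0.13 (-0.74 to 0.48). The interval of B2m, -0.52 to 0.23, and that of Psmb10, -0.37 to 0.14, show how large a difference these libraries could still hold. Among the loading helpers Calr was higher in SMOC2 UUO, at 1277, 1341, 1278 and 1399 CPM, against 902, 929, 799.6 and 976 CPM in WT UUO (log2 0.55, SE 0.11, adjusted p = 0.0380). The libraries did not overlap, but the call was lost, at the same size, with WT UUO 2 and SMOC2 normal 3 left out (log2 0.57, adjusted p = 0.0521), with no filter on low counts (log2 0.55, adjusted p = 0.0564) and with only the UUO libraries (log2 0.55, adjusted p = 0.0559).

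In SMOC2 normal against WT normal, 0 of the 10 genes passed, where 0.0279% of all genes did. Before adjustment 2 of the 10 genes were under 0.05, against 12.8% of all genes: Tap2 (log2 0.35, 95% interval 0.01 to 0.70, adjusted p = 0.381) and Tapbp (log2 0.28, 95% interval 0.03 to 0.54, adjusted p = 0.356), and for these all 3 SMOC2 normal libraries lay above all 3 WT normal libraries, as 8.84% of all genes did, and none of the 10 genes had them all below, as 8.01% of all genes did. Whether the UUO response differed between labels was tested as an interaction. It passed for 0 of the 10 genes and for 0 of 17926 genes (0.0% of those tested) by edgeR, with 1154 genes, or 6.44%, at an unadjusted p under 0.05, none of them among the 10, and 25 genes by DESeq2. The interaction of H2-K1 was -0.50 (95% interval -1.33 to 0.33), that of Psmb9 -0.47 (-1.07 to 0.13) and that of Nlrc5 0.45 (-0.58 to 1.49), which gives the sizes of difference these libraries could not tell from 0. For H2-K1 the split of libraries by H2-Eb1 over H2-Ab1 also enters this value, and its part was not tested.

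Within groups, most of the 10 genes tended to be high or low together in the same libraries, but the heavy chains H2-K1 and H2-D1 did so less. In SMOC2 normal 1 H2-K1 and H2-D1 deviated from the group mean by 0.34 and 0.82 on the log2 scale, and all the other genes were below it. In SMOC2 normal 3 they deviated by -0.38 and -0.96, and all the other genes were above it. In SMOC2 UUO 4 all 10 were above the group mean, by 0.31 on the log2 scale on average, and in WT UUO 4 all 10 were, by 0.44. In WT normal 1 all 10 were below their group mean, by 0.36 on average. Pan-leukocyte markers were highest of their groups in SMOC2 UUO 4 at 367 CPM and WT UUO 4 at 366 CPM and lowest of their group in WT normal 1 at 26.8 CPM, and macrophage markers were 1974, 1849 and 202 CPM in these libraries, again the highest, highest and lowest of their groups. Other marker lists did not all follow this order. T cell markers were highest of their group in SMOC2 UUO 4, at 60.8 CPM. They were 42.1 CPM in WT UUO 4, against 64.2 CPM in WT UUO 2, and 9.13 CPM in WT normal 1, against 5.98 CPM in WT normal 2. Fibroblast markers were lowest of their groups in SMOC2 UUO 4, WT UUO 4 and WT normal 1, at 1333, 992 and 125 CPM. Over all libraries, pan-leukocyte sums kept the order of the mean deviations in both normal groups but in neither UUO group, and macrophage sums kept it in no group. SMOC2 UUO 1 had the lowest mean deviation of its group, at -0.15. Its pan-leukocyte markers were at 325 CPM, against 291 and 277 CPM in SMOC2 UUO 2 and 3. In WT UUO 2 both were lowest of the group, at -0.25 and 307 CPM. The part of any of these cell types in the spread was not tested.

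**Figure D5:**
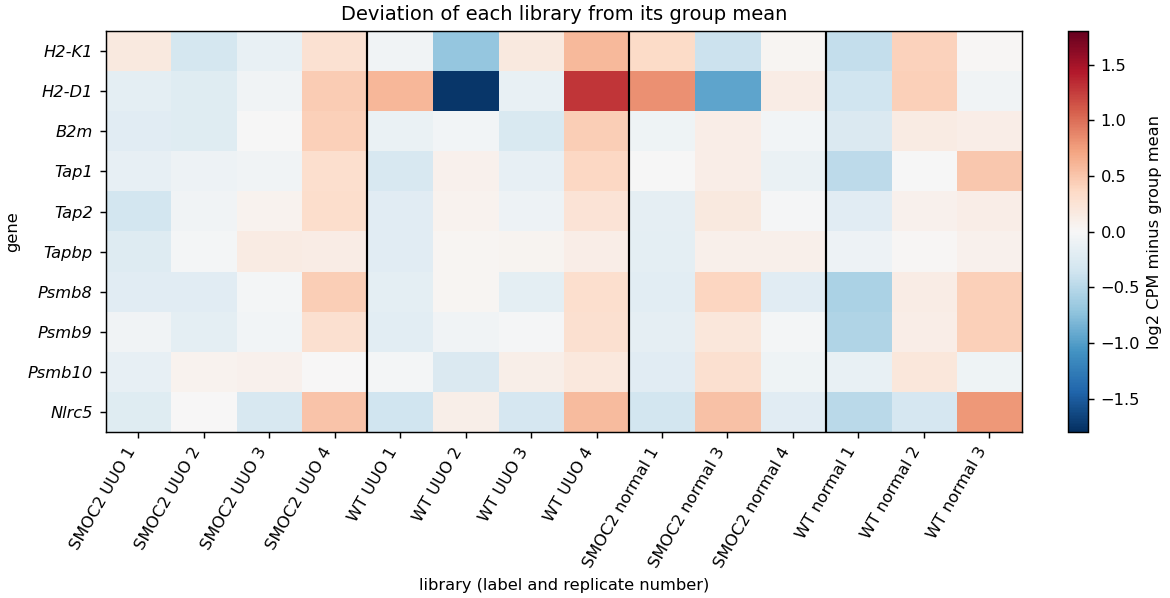
Deviation of each library from its group mean, in log2 CPM, for the 10 genes (rows) and 14 libraries (columns, split by group). The columns of SMOC2 UUO 4 and WT UUO 4 are above the mean for all 10 genes, that of WT normal 1 is below for all 10, and H2-D1 shows the deepest and the highest cells, at -1.76 in WT UUO 2 and 1.29 in WT UUO 4.

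As a description over these 14 deviations, with libraries shared by all genes, the 45 pairs among the 10 genes had correlations between -0.09 and 0.94 with a median of 0.51. The highest were those of Psmb8 with Psmb9, at 0.94, Tap1 with Psmb9, at 0.93, and Tap1 with Psmb8, at 0.92, which are neighbours on chromosome 17. Pairs on different chromosomes ran from -0.03 for H2-D1 with Nlrc5 to 0.90 for Tap1 with Nlrc5. The lowest pair, H2-D1 with Tapbp at -0.09, lies on chromosome 17. H2-D1 followed the other 9 genes least, at 0.29, and B2m most, at 0.88. The spread within groups was widest for H2-D1, at an SD of 0.86 on the log2 scale, and narrowest for Tapbp, at 0.15. Among all genes tested, those whose deviations were most like the mean deviation of the 10 genes over the 14 libraries were Ptpn22 (0.93), H2-Q4 (0.89), Srgn (0.89), Myo1f (0.88), Gbp11 (0.88), Slc11a1 (0.86), Fam163a (0.86) and Gm17709 (0.84). Of these 8 genes 7 rose in both UUO comparisons, where 32.5% of all genes rose in SMOC2 UUO and 31.3% in WT UUO. The share of all genes that rose in both was not computed. Ptpn22 rose by 2.62 in SMOC2 UUO (adjusted p = 1.89e-05) and 2.98 in WT UUO (adjusted p = 7.21e-06). Fam163a changed by -0.10 in SMOC2 UUO (adjusted p = 0.777) and fell by 1.67 in WT UUO (adjusted p = 2.06e-04).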

How the data were processed

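Total RNA of frozen kidney was made into stranded, poly(A)-selected libraries, per the labels' protocols. The authors deposited raw counts of reads per gene for each library, made with STAR 2.4.1d and featureCounts 1.4.4 on the mm10 build, per the submitters' processing notes. The annotation, strand setting and handling of multi-mapping reads were not stated. Groups followed the genotype and treatment labels. Gene symbols and coordinates came from GENCODE M21 on GRCm38, which matched 47310 of 47729 gene IDs, and the 419 others held 0.0288% of counts.

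Counts were tested with edgeR 4.0.16 (R 4.3.3): filterByExpr over the 4 groups, TMM scaling, and quasi-likelihood contrasts between group means fitted on all 14 libraries, with Benjamini-Hochberg adjustment over 17926 genes at 0.05. The scripts were tested on simulated data. CPM are counts scaled by the TMM library size, and levels between genes were divided by the exon length of basic protein-coding transcripts. Subunit ratios were tested by exact permutation. DESeq2 1.42.0, limma 3.58.1 (voom), other scalings and filters, a replicate block and leaving out libraries were alternatives. Reads were counted without molecular identifiers, so the depth of 19483994 to 30033405 counts bounds counting error only.

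The members and all gene lists were chosen with earlier results of these data known. Of each further list the text names up to 5 genes with the smallest p in either UUO comparison, or any gene of lists of up to 7, and the 8 genes most like the members in their deviations. Others are marked as named after their values were seen.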

Additional observations from a re-analysis of the deposited data

Results flagged for a closer look

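Tap1 in SMOC2 UUO had 1 library far from the others: SMOC2 UUO 4 had 68.0 CPM, against 49.8, 51.8 and 52.8 CPM in the other 3 libraries of the group. Of the 26 groups of 4 libraries examined in this way, it was the only one whose highest or lowest value stood so far apart, and chance alone gives about 5% of such groups. All 10 class I and immunoproteasome genes were above their group mean in this library. Without SMOC2 UUO 4, Tap1 was still called higher in SMOC2 UUO than in SMOC2 normal.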

How the results depend on the processing

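In the UUO comparisons, 9 of the 10 genes kept their direction and call under all 23 alternatives, and the 3 subunit ratios under the 18 run for them; H2-D1 was the exception, with log2 changes of 1.31 to 2.13 in SMOC2 UUO and 0.82 to 1.67 in WT UUO when single libraries were left out. Genes called numbered 11264 in SMOC2 UUO and 10950 in WT UUO. Upper-quartile scaling moved the median over all genes to 0.15 and 0.16, against 0.0365 and 0.0455, and the share of calls that were higher to 59.6% and 59.2%, against 51.6% and 51.2%. The small rise of Uggt1 in SMOC2 UUO and the falls of Psmb5, Psmb6 and Psmb7 are to be read against that shift. Same-numbered libraries did not deviate together (correlations of -0.09 to 0.13), so the numbers were not taken as pairs; with a replicate block H2-D1 in WT UUO was 0.83 (adjusted p = 0.207), and the calls of Psmb6 and Calr in WT UUO (adjusted p = 0.0611 and 0.0593) and of Calr in SMOC2 UUO against WT UUO (adjusted p = 0.0636) were lost.

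The count of 149 genes in SMOC2 UUO against WT UUO was 757 with DESeq2, 232 with limma-voom, 69 with the replicate block, 39 with only those groups, 71 with WT UUO 2 and SMOC2 normal 3 left out, and 29 (without SMOC2 UUO 2) to 158 (without SMOC2 UUO 4) with single libraries left out. The count of 5 in SMOC2 normal against WT normal was 12 with no filter, 172 with DESeq2, 9 with limma-voom, 8 with only those groups, and 4 to 21 (without SMOC2 normal 1) with single libraries left out. The interaction count of 0 was 1 with no filter, 25 with DESeq2, 1 with the replicate block and 0 to 2 with single libraries left out. The causes were not tested.

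Among changes that passed no test, several turned sign. With both libraries left out, H2-D1 was -0.24 in SMOC2 UUO against WT UUO; H2-D1 was 0.11, Tap1 -0.041 and Psmb8 -0.17 in SMOC2 normal against WT normal; and the interactions of H2-D1 and Psmb8 were -0.35 and 0.094. With the replicate block, H2-K1 was -0.16, Tap1 -0.022 and Psmb8 -0.011 in SMOC2 normal against WT normal, and the interaction of B2m was 0.043. With single libraries left out, SMOC2 UUO against WT UUO ranged over -0.24 to 0.60 for H2-D1, -0.30 to 0.030 for B2m, -0.17 to 0.072 for Tap1, -0.022 to 0.19 for Tap2, -0.26 to 0.026 for Psmb8 and -0.33 to 0.091 for Nlrc5. SMOC2 normal against WT normal ranged over -0.15 to 0.26 for H2-K1, -0.71 to 0.11 for H2-D1, -0.18 to 0.31 for Tap1 and -0.18 to 0.30 for Psmb8. The interaction ranged over -0.022 to 0.83 for H2-D1, -0.22 to 0.12 for B2m, -0.38 to 0.12 for Tap1, -0.38 to 0.10 for Psmb8, -0.079 to 0.19 for Psmb10 and -0.079 to 0.78 for Nlrc5.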

Other observations

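Other class I and class I receptor genes showed values that belong to no comparison above, and all were named after their values were seen. H2-T22, a nonclassical class I gene, had 6.32, 6.38, 6.29 and 9.13 CPM in SMOC2 UUO, against 31.2, 47.5, 25.9 and 11.97 CPM in WT UUO, and 5.76, 31.5 and 33.1 CPM in SMOC2 normal, against 40.4, 6.99 and 37.2 CPM in WT normal. The difference between SMOC2 UUO and WT UUO was -2.06 on the log2 scale for H2-T22 (adjusted p = 0.101), -0.82 for H2-T23 (adjusted p = 0.0830) and -0.78 for H2-T24 (adjusted p = 0.0776). All 4 SMOC2 UUO libraries lay below all 4 WT UUO libraries for each of these genes, as for 4.43% of all genes. None passed with edgeR, whereas DESeq2 called all 3 (adjusted p = 0.0316 for H2-T22, 0.00980 for H2-T23 and 0.00717 for H2-T24), and limma-voom gave adjusted p = 0.167, 0.0649 and 0.0665. H2-T22, H2-T23 and H2-T24 were 3 of the 4 other class I genes called lower in SMOC2 UUO than in SMOC2 normal, by 1.75, 0.62 and 0.51 on the log2 scale, and Fcgrt, the neonatal Fc receptor, was the other, with a change of -0.76. With WT UUO 2 and SMOC2 normal 3 left out, Fcgrt alone of the 4 was called lower. The level of H2-T22 differed as widely between libraries of the normal groups as between UUO groups, and reads of these genes can be split between near copies.

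Cd8a, the CD8 alpha chain of cytotoxic T cells, had 10.1 CPM in SMOC2 normal 1, against 0.666 and 0.469 CPM in the other SMOC2 normal libraries, and 1.59 to 7.03 CPM in SMOC2 UUO. Its partner chain Cd8b1 had 0 CPM in SMOC2 normal 1. Cd8a was called higher in WT UUO than in WT normal (log2 2.71, adjusted p = 0.0374).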
